A study of Homo sapiens with 40 samples.

Results

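The expression profile of HepaRG cells exposed to Roundup at 10 ug/L was compared with that of solvent control cells. The comparison used every library that the labels assign to either condition, that is, 5 Roundup and 5 control libraries. These are 10 of the 40 libraries in the series and 10 of the 25 in the table that also holds 3 concentrations of glyphosate. HepaRG is a human hepatic line from 1 liver tumour, bought here as differentiated HPR 116 cells, so the libraries carry 1 genetic background. All groups were moved on day 8 to a test medium with fetal bovine serum and DMSO and were kept in it to day 14, with either the solvent alone or a treatment. Roundup was given at 1 concentration, and the labels do not say whether 10 ug/L refers to the whole product or to its glyphosate content. The only group with the same labelled dose was glyphosate at 10 ug/L (5 libraries). The labels do not say that the 5 libraries of a group came from separate cultures, so the p-values below measure only the spread between these libraries, which may be technical.

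Glyphosate blocks a plant and microbial enzyme of aromatic amino acid synthesis that animal cells lack. Roundup is a commercial herbicide in which glyphosate is mixed with co-formulants such as surfactants. Differentiated HepaRG cultures hold hepatocyte-like and biliary-like cells, and they are widely used in toxicology because the hepatocyte-like cells keep xenobiotic receptors, drug-metabolising enzymes and the secretion of plasma proteins. The question the design poses is whether a low concentration of the formulation altered the liver cell transcriptome, and by how much.

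Total RNA was depleted of ribosomal RNA and sequenced as strand-specific libraries. The deposited values are FPKM, a measure of sequenced fragments corrected for transcript length and for the size of the library. They were summed over the transcripts of each gene name and analysed as log2(FPKM + 1). All differences below are Roundup minus control on this scale unless stated, so the changes of weakly expressed genes are understated. The test was limma with all 5 groups of the table in 1 fit, for the genes whose FPKM had a variance above 1 over the 25 libraries, and a gene was called at a Benjamini-Hochberg adjusted p under 0.05. FPKM keeps no record of depth, and the number of libraries sets the precision. In bulk RNA, fewer cells of a type and less RNA per cell cannot be told apart.

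The cultures expressed hepatocyte genes, led by albumin. Albumin (ALB) lay between 6832 and 13630 FPKM in the Roundup libraries and between 9144 and 12990 FPKM in the control libraries. All 14 hepatocyte markers were listed in the table and 13 were tested, with a summed level of 10620 to 21480 FPKM (Roundup) and 13560 to 19850 FPKM (control). Albumin made up much of this sum, and not every marker was abundant, since CYP3A4 was at a few FPKM. The 13 biliary and progenitor markers, led by KRT19, summed to between 235 and 585 FPKM and between 282 and 544 FPKM. The 10 stellate cell and fibroblast markers reached at most 37.5 FPKM in any of the 10 libraries. The macrophage and blood markers summed to at most 15.6 FPKM, with the complement genes C1QA and C1QB at 0 in all 10 libraries. The endothelial markers summed to at most 5.27 FPKM, and the sinusoidal lectin CLEC4G was at 0 throughout.

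No gene was called altered by Roundup at 10 ug/L. Of 9533 genes tested with limma, 0 passed the threshold, and no adjusted p was below 0.902. Of 19 other settings 16 also gave 0, and the other 3 gave 1, 2 and 3470, the last with library weights whose estimation did not converge. At an unadjusted p under 0.05 there were 165 genes (1.73% of those tested), of which 33 were higher with Roundup (0.346%) and 132 lower (1.38%). This count rested on single libraries: it was 469 without control replicate 5 (24 higher, 445 lower), 340 without Roundup replicate 2, 281 without Roundup replicate 1 and 116 without Roundup replicate 5 (55 higher, 61 lower). At the level of single transcripts, 0 of 20601 were called by limma, 777 had an unadjusted p under 0.05 (3.77%), and no adjusted p was below 0.164. The distribution of effects over genes was narrow and displaced below 0. Its median was -0.18 on the log2 scale, 86.0% of genes lay below 0, the middle 50% of genes lay between -0.25 and -0.08, and the SD over genes was 0.26. The middle 95% of genes ran from -0.62 to 0.35. A change past 2-fold was estimated for 77 genes (0.808%), 21 upward and 56 downward, and past 4-fold for 15.

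The precision of these estimates bounds what could have been missed. The median half-width of the 95% interval of a gene's difference was 0.56 on the log2 scale, or 1.47-fold. For 8031 genes (84.2%) the whole interval lay within 2-fold of control in either direction, and for 9417 (98.8%) it lay within 4-fold. It lay within 1.5-fold for only 607 genes (6.37%). In these unscaled values a change of 1.5-fold could therefore not be excluded for most genes, and the absence of calls does not show that levels were equal. These folds are of FPKM + 1, so for weakly expressed genes a 2-fold change of FPKM itself can lie inside an interval within 2-fold. With a pseudocount of 0.1 in place of 1, the genes past 2-fold rose from 77 to 294. The intervals were narrower after the scaling described below.

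The downward displacement was smaller than the spread of whole libraries. Its size, 0.18, compares with an SD of 0.4 between replicate libraries in the log2 level of the median gene. The 75th percentile of FPKM over the genes tested was 18.3, 18.6, 13.6, 10.7 and 8.09 in Roundup replicates 1 to 5, and 18.0, 18.9, 16.7, 15.0 and 9.57 in control replicates 1 to 5. The groups overlapped almost completely (2-sided exact permutation test, p = 0.524, for which 5 against 5 libraries allow no p below 0.00794). The share of FPKM times length that fell on ribosomal DNA transcripts was 8.04, 4.18, 16.5, 19.5 and 36.2% in the Roundup libraries, and 12.4, 4.79, 12.9, 14.2 and 32.5% in the control libraries (exact permutation p = 0.81). Libraries with a large ribosomal share had low values for most other genes. Whether this share had a part in any difference between the groups was not tested beyond the settings named here. Over all 25 libraries, the first principal component held 44.6% of the variance and had a correlation of 0.97 with this share, given as a description, since both come from the same libraries. Replicate 5 of each group stood apart, and these were the only libraries of the 2 groups in which the ribosomal share was over 30%. Without the 4 libraries of the table above this limit, limma again called 0 genes, and 116 genes were past 2-fold.

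**Figure D1:**
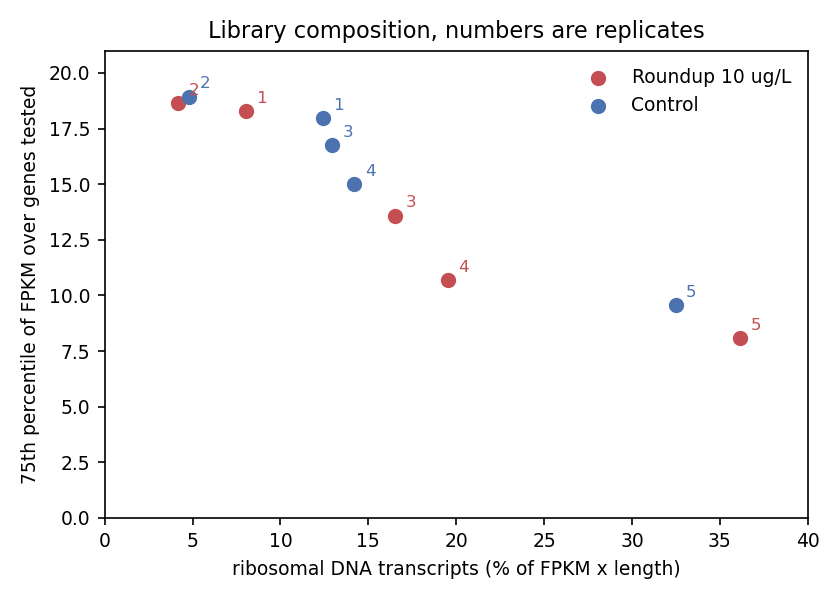
Each of the 10 libraries is drawn by its share of ribosomal DNA transcripts (x axis, % of FPKM times length) and the 75th percentile of FPKM over the genes tested (y axis), with the replicate number beside it. The 75th percentile falls from 18.9 to 8.09 FPKM as the ribosomal share rises to 36.2%, and the Roundup and control libraries lie along the same band.

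Each library was then divided by its own 75th percentile. This step brings the centre of the differences near 0 by construction, so it cannot show whether levels as a whole had changed. The median difference was 0.00 and 49.3% of genes lay below 0. The spread stayed, with an SD of 0.27 over genes and 73 genes past 2-fold (0.766%), now 38 higher and 35 lower. The split between higher and lower genes at an unadjusted p under 0.05 turned from 33 against 132 to 206 against 183 (2.16% and 1.92%), of 389 genes in all (4.08%). limma again called 0 genes, with a smallest adjusted p of 0.0876. Below, differences after this scaling are called scaled differences.

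**Figure D2:**
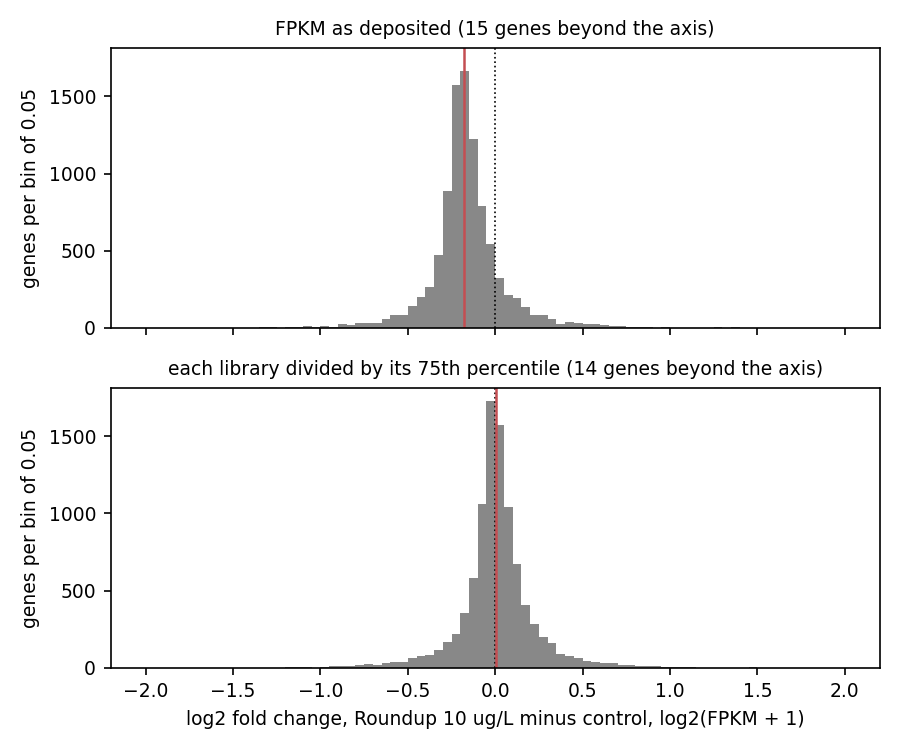
Histograms of the log2 difference, Roundup minus control, over 9533 genes in bins of 0.05, as deposited and after scaling by the 75th percentile of each library. The median moves from -0.18 to 0.00 while the width stays the same, with an SD of 0.26 and 0.27.

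The spread of effects depended on how strongly a gene was expressed. It was lowest at intermediate levels, with an SD of 0.23 for the 4881 genes with a mean of 3 to 10 FPKM and 0.20 for the 2759 genes with 10 to 30 FPKM. It was 0.37 for the 772 genes with 1 to 3 FPKM and 0.64 for the 264 genes over 100 FPKM. Of the genes past 2-fold, 29 of 77 (37.7%) were listed at 0 in at least 1 of the 10 libraries, against 211 of all genes tested (2.21%).

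Most of the large differences were not seen when all transcripts of an assembled locus were summed. A locus here is the group of overlapping transcripts, named or unnamed, that StringTie put together at 1 place. Some loci hold more than 1 gene, and their sums then mix these genes. Of the 77 genes past 2-fold, 75 had a locus that could be tested, and 10 of those loci were also past 2-fold in the same direction. Of the 165 genes with an unadjusted p under 0.05, 157 had a testable locus, and 19 loci had an unadjusted p under 0.05 in the same direction. Over 9477 loci limma called 0, with 47 at an unadjusted p under 0.05 (0.496%), 24 past 2-fold (0.253%) and an SD of 0.16. Summing by locus and scaling together gave the narrowest intervals. Their median half-width was 0.20, or 1.15-fold, and the interval lay within 1.5-fold of control for 8667 loci (91.5%) and within 2-fold for 9234 (97.4%). These intervals are relative to the 75th percentile of each library, so a change shared by most loci would not show in them. They are also of FPKM + 1, so changes of weakly expressed loci are understated. With both steps limma called 0 loci, and 300 had an unadjusted p under 0.05 (3.17%), 178 of them higher and 122 lower.

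Of all 9533 genes, 4 had Roundup and control values that did not overlap (0.042%), namely EIF3CL and NUDT4, which were lower, and CEP55 and KRT10, which were higher (0.021% in each direction). After scaling there were 38 such genes (0.399%), 19 in each direction (0.199%), and CEP55 and KRT10 were not among them, since 1 library of each group overlapped. RACGAP1 and 8 more genes, with EIF3CL, NUDT4 and CEP55, were the 12 with the smallest p.

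EIF3CL and EIF3C are near-identical copies of the gene for the c subunit of initiation factor eIF3, which brings the small ribosomal subunit to mRNA. EIF3CL lies on chromosome 16 from 28379579 to 28403841 on the minus strand and EIF3C from 28688558 to 28735727 on the plus strand (GRCh38, GENCODE). Their coding sequences, of 2742 and 2739 bases, differed by a single insertion of 3 bases after base 870 of EIF3CL and by 0 other bases. Of the 75-base windows of the EIF3CL transcript, 97.8% also occur in EIF3C, and the reads were 75 bases long. The stretch around the insertion is the only coding sequence that tells the copies apart, and is shown for this reason, with the inserted triplet of a GAG repeat in capitals; the 2 runs start at coding bases 842 and 841 and cover chr16:28392018-28392077 (minus strand) and chr16:28723228-28723287 (plus strand).
EIF3CL: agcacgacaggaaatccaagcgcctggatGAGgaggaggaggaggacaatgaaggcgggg
EIF3C: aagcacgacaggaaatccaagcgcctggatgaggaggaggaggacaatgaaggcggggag

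EIF3CL had the smallest p of all genes. It measured 0, 0.135, 16.2, 8.17 and 0.00228 FPKM in the Roundup libraries and 22.7, 46.2, 47.5, 26.2 and 22.9 FPKM in the control libraries. Every Roundup value was below every control value, with a difference of -3.52 ± 0.96 (SE, n = 5 and 5; limma unadjusted p = 0.00094, adjusted p = 0.902). In glyphosate 10 ug/L libraries EIF3CL ranged from 1.89 to 45.8 FPKM, across both groups. EIF3C itself measured 18.8 to 36.6 FPKM with Roundup and 9.30 to 50.5 FPKM in controls (exact permutation p = 0.659). The sum of both copies by gene name does not depend on how reads were shared between them, but leaves out other transcripts at their loci. It was 31.4 ± 13.5 FPKM with Roundup and 63.6 ± 30.3 FPKM in controls (mean ± SD, n = 5), and the groups overlapped (exact permutation p = 0.0714). The assembled locus of EIF3CL, which also holds NPIPB6, measured 13.61 to 43.35 FPKM with Roundup and 23.68 to 49.58 FPKM in controls (exact permutation p = 0.19). EIF3CL held 0 to 30.7% of the sum of both copies in the Roundup libraries and 40.3 to 71.1% in the controls. Given the shared sequence and the other transcripts of its locus, the level of EIF3CL alone is uncertain.

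NUDT4, a Nudix hydrolase that cleaves diphosphoinositol polyphosphates and dinucleotides, lies on chromosome 12 from 93377883 to 93408146 (plus strand). Under its gene name it measured 0, 4.14, 0.134, 0.264 and 2.40 FPKM with Roundup and 8.41, 9.90, 8.24, 8.81 and 5.53 FPKM in controls, a difference of -2.25 ± 0.62 (SE; limma unadjusted p = 0.0011, adjusted p = 0.902). A limma fit of the 2 groups alone called NUDT4 and EIF3CL, with an adjusted p of 0.0407 for each. The NUDT4 locus as a whole was also low with Roundup. It measured 4.24, 7.18, 3.79, 3.07 and 2.56 FPKM with Roundup and 8.42, 9.91, 8.24, 8.83 and 5.53 FPKM in controls (exact permutation p = 0.0159), where Roundup replicate 2 exceeded control replicate 5. After scaling, the ranges were 3.58 to 5.95 and 7.23 to 9.07 FPKM, without overlap, and the scaled difference was -0.71 ± 0.16 (exact permutation p = 0.00794; limma adjusted p = 1.0 over all loci). The glyphosate 10 ug/L libraries spanned 4.11 to 8.18 scaled FPKM, across both ranges. NUDT4 has copies elsewhere in the genome. NUDT4B on chromosome 1 shares 78.1% of its 75-base windows with NUDT4. A copy named NUDT4P1 in the expression values measured 3.33 to 6.90 FPKM with Roundup and 3.99 to 6.92 FPKM in controls. The GENCODE annotation used for the sequences does not list that name, so NUDT4P1 and NUDT4B may be the same copy. Summed by gene name, NUDT4 and NUDT4P1 measured 6.27 ± 2.7 FPKM with Roundup and 13.8 ± 2.7 FPKM in controls (mean ± SD). The groups overlapped in this sum (exact permutation p = 0.0159).

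RACGAP1 and CEP55 act in cytokinesis, the final separation of daughter cells. RACGAP1 (chromosome 12, 49976923 to 50033136) measured 13.3, 12.4, 9.25, 6.98 and 5.21 FPKM with Roundup and 3.19, 13.0, 2.19, 1.88 and 1.31 FPKM in controls, a difference of 1.26 ± 0.35 (limma unadjusted p = 0.0011, adjusted p = 0.902). Control replicate 2 was as high as the Roundup libraries. Summed over its locus, RACGAP1 was 9.80 ± 3.05 FPKM with Roundup and 10.7 ± 3.64 FPKM in controls (exact permutation p = 0.667), and the groups overlapped. CEP55 (chromosome 10, 93496632 to 93529092) measured 0.724, 3.98, 1.73, 2.82 and 2.12 FPKM with Roundup and at most 0.674 FPKM in controls, a difference of 1.28 ± 0.40. Its locus measured 3.77 ± 1.16 and 4.39 ± 2.07 FPKM (exact permutation p = 0.571). Of 19 tested cell cycle genes, 0 were called and 0 had an unadjusted p under 0.05, and the proliferation clamp PCNA measured 22.6 to 66.8 FPKM with Roundup and 22.5 to 71.98 FPKM in controls.

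KRT10, a keratin of stratified epithelia, measured 3.71 to 7.08 FPKM with Roundup and 1.91 to 3.07 FPKM in controls. The groups did not overlap by gene name, with a difference of 0.72 ± 0.38 (limma unadjusted p = 0.067, adjusted p = 0.902). By locus they did, at 4.54 to 7.92 and 2.57 to 14.5 FPKM.

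**Figure D3:**
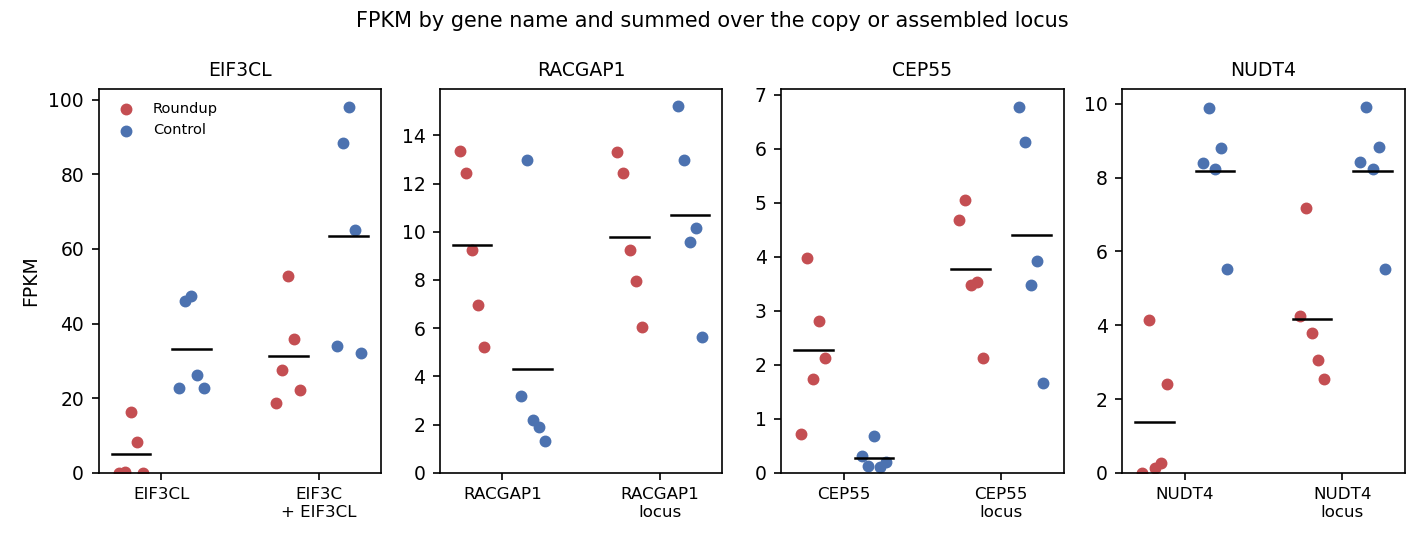
FPKM per library under the gene name, and summed over both copies (EIF3CL with EIF3C) or over the assembled locus, for EIF3CL, RACGAP1, CEP55 and NUDT4, with black bars at the group means. After summing, RACGAP1 and CEP55 overlap, and the group means of NUDT4 remain apart, at 4.17 and 8.19 FPKM.

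The other genes with the smallest p were all lower with Roundup. MED25, a Mediator subunit, had a difference of -1.27 ± 0.37, and NIPBL, the cohesin loader, had -1.03 ± 0.30. BTD, which recycles biotin, had -1.10 ± 0.35, SLC27A1, a fatty acid transporter, -0.90 ± 0.28, and CDK5RAP2, a centrosome protein, -0.89 ± 0.29. UNKL was lower by gene name (-0.87 ± 0.28), and so were ZNF830 (-0.85 ± 0.27) and PARP8 (-0.73 ± 0.22), an ADP-ribosyltransferase family member. Each of these 8 had a limma adjusted p of 0.902. Summed by locus, the exact permutation p was 0.0159 for PARP8 and 0.0397 for UNKL, and between 0.143 and 0.563 for the other 6. The PARP8 locus measured 5.01, 5.85, 3.62, 2.90 and 5.04 FPKM with Roundup and 6.54, 9.14, 8.86, 8.38 and 5.48 FPKM in controls, and after scaling Roundup replicate 5 was the highest of all 10 libraries, at 9.61 FPKM (exact permutation p = 0.111).

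Single transcripts of MFN2 and CES1 show the same pattern in full. MFN2 encodes a mitochondrial fusion protein, and the transcript with the smallest p was an unnamed assembly of 15 exons at its locus, on chromosome 1 from 11980214 to 12005932. It measured 0.735, 0.181, 0.000824, 0.850 and 0.561 FPKM with Roundup and 17.8, 12.1, 11.9, 15.9 and 8.70 FPKM in controls, a difference of -3.29 ± 0.58 (limma adjusted p = 0.164 over transcripts). The sum over the MFN2 locus was 24.4 ± 8.90 FPKM with Roundup and 27.8 ± 6.65 FPKM in controls (exact permutation p = 0.516). CES1 encodes the carboxylesterase that hydrolyses many ester drugs in liver. Its transcript ENST00000422046 (chromosome 16, 55802854 to 55833337) measured 8.57, 84.3, 38.7, 29.5 and 21.8 FPKM with Roundup and 212, 217, 219.8, 116 and 124 FPKM in controls (limma adjusted p = 0.298). CES1 as a gene measured 544 to 1161 FPKM with Roundup and 558 to 1030 FPKM in controls (exact permutation p = 0.921). In both genes the groups were far apart for 1 transcript and overlapped for the whole.

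Among the loci after scaling, some with a small p were examined further. DDX10, IMMP2L and ALDH3B1 were taken from the fit without a block. AHSG and SLC22A7 were taken from a fit with the replicate number as a block. CBWD3, TESK1 and SIKE1 had a smaller p than IMMP2L and ALDH3B1 in the first fit. Of these, CBWD3 did not overlap between groups, at 3.59 to 4.92 and 2.17 to 3.09 scaled FPKM. All loci named were chosen after their values were seen, and limma called 0 of them in the fit without a block. DDX10, an RNA helicase of ribosome assembly, had the smallest p of that fit. Its locus on chromosome 11, from 108665025 to 108940930, measured 4.79, 6.13, 6.20, 4.84 and 5.42 scaled FPKM with Roundup and 3.48, 4.19, 3.17, 3.31 and 4.60 in controls (scaled difference 0.46 ± 0.10, exact permutation p = 0.00794, limma adjusted p = 0.918). The glyphosate 10 ug/L libraries measured 3.83 to 4.43 scaled FPKM, below every Roundup library. DDX10 was picked as the smallest p of 9477 loci, so its exact permutation p adds no support. Loci without overlap after scaling were not counted, and by gene name there were 38 of 9533 (0.399%). As deposited, the DDX10 locus overlapped between groups, at 2.84 to 7.41 and 2.85 to 5.14 FPKM (exact permutation p = 0.254). IMMP2L, a subunit of the mitochondrial inner membrane peptidase, measured 9.82 to 13.4 scaled FPKM with Roundup and 7.40 to 9.55 in controls. Its glyphosate 10 ug/L libraries ran from 6.84 to 11.9. ALDH3B1, an aldehyde dehydrogenase, was at 10.3 to 14.5 against 14.4 to 16.6 scaled FPKM, with glyphosate 10 ug/L at 13.9 to 17.6. AHSG, the plasma glycoprotein fetuin-A made by hepatocytes, measured 45.3, 52.3, 52.7, 78.1 and 69.0 scaled FPKM with Roundup and 29.2, 32.9, 37.0, 53.5 and 55.95 in controls (exact permutation p = 0.0794). With the replicate number as a block in the fit, its limma adjusted p was 0.0377. SLC22A7, a basolateral organic anion transporter of hepatocytes, measured 10.9 to 16.8 and 6.79 to 14.8 scaled FPKM (exact permutation p = 0.0556). Its limma adjusted p with the block was 0.454.

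**Figure D4:**
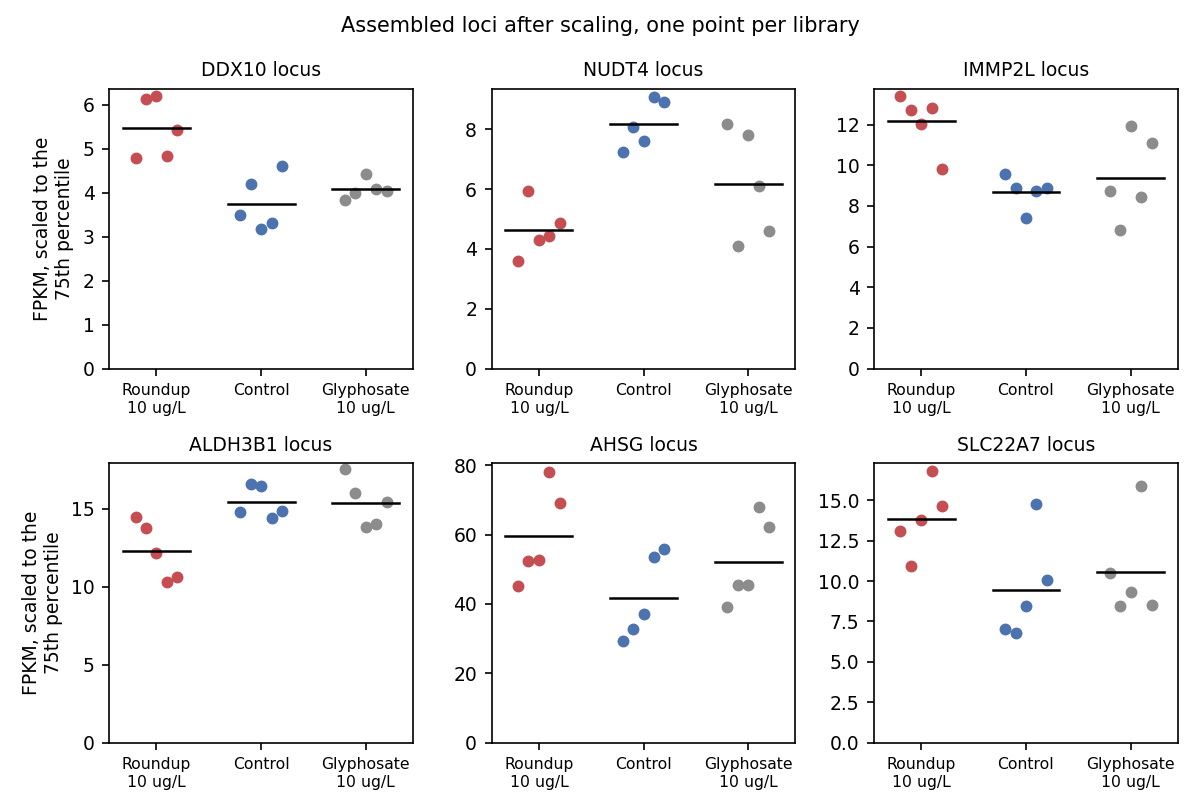
Scaled FPKM per library in the Roundup, control and glyphosate 10 ug/L groups for the loci of DDX10, NUDT4, IMMP2L, ALDH3B1, AHSG and SLC22A7, with bars at the group means. For DDX10, chosen as the smallest p of 9477 loci, the Roundup libraries (4.79 to 6.20) lie above all control (3.17 to 4.60) and glyphosate (3.83 to 4.43) libraries. For AHSG and SLC22A7 the groups overlap.

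The pathways that a xenobiotic would be expected to engage in hepatocytes were then described by list. In each list 0 members were called by limma, against 0 of 9533 genes in all. Of the 10 aryl hydrocarbon receptor (AhR) target genes 7 were tested, with a median scaled difference of -0.01 beside 0.00 for all genes. CYP1A1, the classical AhR target, measured 0, 0.118, 0, 0 and 0.0183 FPKM with Roundup and 7.69, 3.76, 0.175, 0 and 0 FPKM in controls. The difference of -1.08 ± 0.48 came from 2 control libraries (limma unadjusted p = 0.033, adjusted p = 0.902; exact permutation p = 0.167). Summed by locus a difference of -0.94 remained (limma unadjusted p = 0.0142, exact permutation p = 0.151). The locus measured 0.118 to 0.739 FPKM with Roundup and 0.160 to 7.9 FPKM in controls, where the same 2 libraries were highest. CYP1A1 was at or near 0 in the other 3 control libraries and in all 5 glyphosate 10 ug/L libraries, which reached at most 0.0408 FPKM. The receptor AHR itself had a scaled difference of 0.02. CYP1B1 measured 6.00 to 14.4 FPKM with Roundup and 7.47 to 25.1 FPKM in controls. ALDH3A1, another AhR target, measured 86.4 to 109.6 scaled FPKM with Roundup and 104 to 147 in controls (exact permutation p = 0.0476). As deposited, its exact permutation p was 0.175.

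The PXR and CAR genes, which these nuclear receptors induce in response to many drugs, gave 10 tested of 15. Their median scaled difference was -0.02, and 3 of the 10 were above 0. CYP3A4, the main drug-metabolising P450 of adult liver, measured 1.36 to 3.54 FPKM with Roundup and 1.37 to 6.95 FPKM in controls. The drug efflux pump ABCB1 measured 13.2 to 29.0 and 15.4 to 32.4 FPKM. POR, the electron donor of all microsomal P450s, had the smallest p of the list, with 16.8, 10.2, 23.6, 19.5 and 14.0 FPKM against 25.8, 31.5, 30.3, 29.9 and 17.3 FPKM (-0.67 ± 0.35; exact permutation p = 0.0238, and 0.246 after scaling). Its locus overlapped between groups (exact permutation p = 0.849). Other drug-metabolising enzymes (26 of 30 tested) had a median scaled difference of 0.12, and 21 of 26 were above 0, but none of them had an unadjusted p under 0.05.

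The lists of stress response genes had medians between -0.09 and 0.04 after scaling. The median scaled difference was 0.04 for 18 genes of the endoplasmic reticulum unfolded protein response, -0.01 for 13 genes of the integrated stress response, 0.00 for 13 heat shock genes and -0.02 for 14 p53 targets. For 17 antioxidant genes under NRF2, the regulator of the response to electrophiles, it was -0.07, with 2 of 17 above 0. SQSTM1, a selective autophagy receptor, had the smallest p of that list by gene name, at 4.08 to 12.1 FPKM against 6.70 to 60.03 FPKM (-1.12 ± 0.55, limma unadjusted p = 0.051). Its locus measured 70.7 to 267 and 115 to 226 FPKM (exact permutation p = 0.81). The thioredoxin TXN had a scaled difference of -0.06 and the peroxiredoxin PRDX1 of -0.04. Inflammatory cytokine genes (11 tested) had a median of -0.09, with the chemokine CCL2 at 7.77 to 30.4 and 8.93 to 36.2 FPKM. As deposited, no stress list had a member with an unadjusted p under 0.05.

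For 4 lists of hepatocyte secretion and lipid metabolism, the scaled medians lay between 0.03 and 0.22, beside 0.00 for all genes. The lowest of these did not exceed the 0.04 of the unfolded protein response. The scaled difference was above 0 in 7 of 7 tested apolipoproteins, with a median of 0.22 and a range of 0.09 to 0.42. APOC3, an inhibitor of lipoprotein clearance, measured 178 to 285 scaled FPKM with Roundup and 108 to 286 in controls (exact permutation p = 0.286). APOA1, the main protein of high-density lipoprotein, measured 872 to 1328 and 608 to 1420 scaled FPKM (exact permutation p = 0.405). Acute-phase proteins had a median of 0.14 (14 of 18 above 0), fatty acid oxidation and PPARA genes 0.08 (16 of 20) and lipogenesis and triglyceride genes 0.03 (11 of 20). The first of these lists includes fibrinogen, and its gamma chain FGG measured 983 to 2398 FPKM with Roundup and 1184 to 2534 FPKM in controls. As deposited, the medians of the same 4 lists were 0.02, -0.06, -0.12 and -0.12, beside -0.18 for all genes. The sign depended on the scaling for all of these lists but the apolipoproteins, whose median was above 0 in both. None of the tested members of the 4 lists had an unadjusted p under 0.05.

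**Figure D5:**
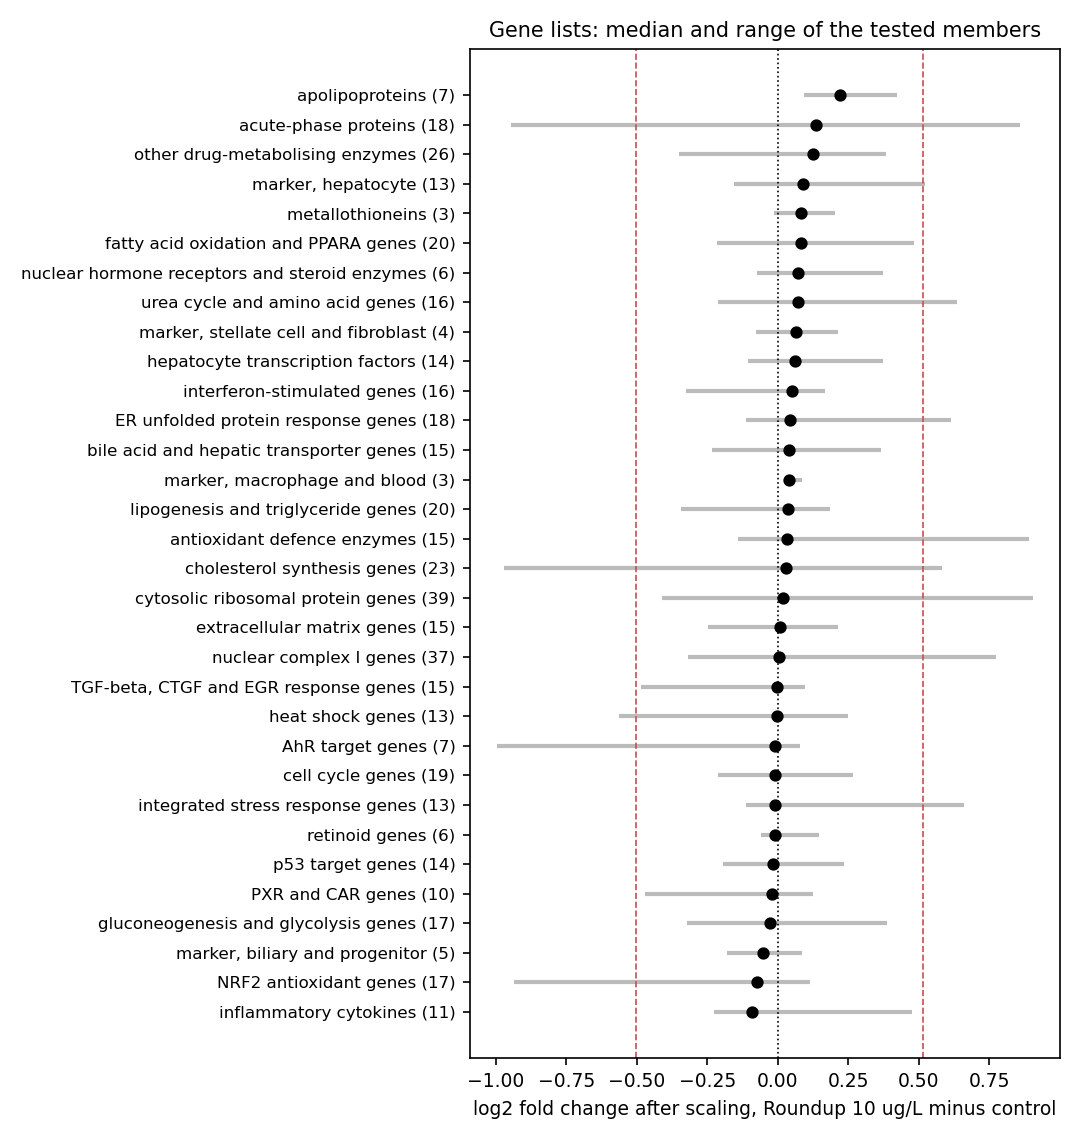
Median (dot) and range (grey bar) of the scaled log2 difference over the tested members of each gene list, with their number in parentheses and the limits of the middle 95% of all genes as dashed lines (-0.50 and 0.52). The medians of the lists drawn lie between -0.09 (inflammatory cytokines) and 0.22 (apolipoproteins), and the mitochondrially encoded proteins, with a median of -0.72, are not drawn.

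In the remaining lists, 4 genes reached an unadjusted p under 0.05, beside 165 of all 9533 genes tested (1.73%). EBP, a sterol isomerase, was the only 1 of 23 cholesterol synthesis genes to do so, at 3.47, 3.57, 0.971, 4.70 and 7.79 FPKM with Roundup and 3.02, 16.9, 8.62, 14.4 and 9.01 FPKM in controls (-1.15 ± 0.48, limma unadjusted p = 0.025). The median of these 23 genes was 0.03 after scaling, and the EBP locus, which also holds PORCN, overlapped between groups (exact permutation p = 0.198). TGFB1, the fibrogenic cytokine, was 1 of 15 genes of its list (-0.68 ± 0.31, unadjusted p = 0.035), with a locus exact permutation p of 0.778. NDUFV3, a small accessory subunit, was 1 of 37 nuclear complex I genes (0.63 ± 0.29, unadjusted p = 0.041), with a locus exact permutation p of 0.77. The fourth was MT-ND5, a complex I subunit encoded by mitochondrial DNA. The lists of bile acid transport, glycolysis, the urea cycle, interferon response, extracellular matrix, metallothioneins, retinoids, nuclear receptors, hepatocyte transcription factors and ribosomal proteins had scaled medians between -0.03 (glycolysis and gluconeogenesis) and 0.08 (metallothioneins).

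The mitochondrially encoded transcripts were listed at 0 in many libraries. MT-ND5 measured 35.0, 33.7, 21.8, 0 and 14.1 FPKM with Roundup and 0, 0, 0, 0 and 12.5 FPKM in controls (exact permutation p = 0.0476; limma adjusted p = 0.902). MT-CO3, a subunit of cytochrome c oxidase, went the other way, at 0, 0, 0, 270.0 and 0 FPKM with Roundup and 381, 8.12, 285, 290 and 0 FPKM in controls (exact permutation p = 0.0873). MT-CO1 measured 464, 516, 351, 1159 and 210.2 FPKM with Roundup and 1506, 2009, 1411, 1223 and 193 FPKM in controls (exact permutation p = 0.0873). Roundup replicate 4 was the only Roundup library with MT-CO3 and the only one without MT-ND5, and control replicate 5 was the only control library with MT-ND5. MT-CYB, in contrast, measured 67.9 to 172 and 73.2 to 169 FPKM (exact permutation p = 0.754). MT-ND3 and MT-ND6 were at 0 in all 10 libraries, although every cell with mitochondria uses them, so a 0 here is a listed value and not evidence of absence. The sum of the mitochondrially encoded proteins was 785 ± 554 FPKM with Roundup and 1701 ± 828 FPKM in controls (exact permutation p = 0.103). The signal recognition particle RNA RN7SL1 was equally discontinuous. It was listed at 55490 and 17230 FPKM in Roundup replicates 2 and 5, and at 0 in the other 3 and in all 5 control libraries. Its sum with RN7SL2 and AL139099.5 overlapped between groups, at 31410 to 73870 and 39900 to 63590 FPKM (exact permutation p = 0.77).

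At the matched label of 10 ug/L, Roundup and glyphosate could be compared directly. limma called 0 of 9533 genes between them, with 121 at an unadjusted p under 0.05 (1.27%) and a smallest adjusted p of 0.974, and 0 of 20601 transcripts, with 648 at an unadjusted p under 0.05 (3.15%). Over loci it called 0 of 9477, with 37 at an unadjusted p under 0.05 (0.39%), and after scaling again 0, with 240 (2.53%). The median difference, Roundup minus glyphosate, was -0.14 with an SD of 0.23, and 57 genes were past 2-fold. The comparisons of each treatment with control share the same 5 control libraries. Side by side, the median difference from control was -0.18 for Roundup at 10 ug/L (SD over genes 0.26), -0.04 for glyphosate at 10 ug/L (0.24), 0.14 at 1 mg/L (0.25) and -0.01 at 0.1 g/L (0.29). The number of genes past 2-fold was 77, 63, 77 and 56 in the same order.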

How the data were processed

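Reads had been aligned by HISAT2 (GRCh38), and StringTie had assembled transcripts, per the submitters' processing notes; the authors deposited FPKM per transcript (234960 transcripts, 25 libraries, not scaled further between libraries). Some deposited columns hold values below 0 and are listed as a score; 6 such values were set to 0. FPKM were summed over 56568 gene names or over assembled loci. log2(FPKM + 1) was fitted for features with a variance above 1 by limma 3.58.1 in R 4.3.3, with 5 groups in 1 fit and Benjamini-Hochberg adjustment at 0.05. The scripts were tested on simulated data. Single values were compared by 2-sided exact permutation tests. No test for counts was used, since FPKM are not counts, and depth cannot be read from them. Paralog sequences came from GRCh38 with GENCODE. Genes were named by rule: those called, the 12 with the smallest p, those without overlap between groups with a mean of at least 1 FPKM, and in each of 36 gene lists the 3 most abundant tested members and the one with the smallest p. Loci after scaling, transcripts and some list members (CYP1B1, CYP3A4 and the mitochondrial genes among them) were named after their values were seen. The comparison and the lists were chosen with earlier results of these data known. Alternatives were other pseudocounts, filters, scalings, variance models, subsets of libraries and a replicate block. Other steps used Python 3.11.15, numpy 2.4.6, pandas 2.3.3 and matplotlib 3.10.9. One named gene is not reported here.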

Additional observations from a re-analysis of the deposited data

Results flagged for a closer look

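Within each group of 5, the highest or lowest library was compared with the rest by Dixon's ratio, and the values below stood apart among the named genes in the 2 groups. Chance alone marks about 1 in 20 groups. With 138 named genes and 2 groups for each, about as many flags as are listed here can arise by chance. Of the 10 libraries, control replicate 5, one of the 2 with a ribosomal DNA share over 30%, was the low library in CES1 (558 FPKM), CYP51A1 (30.3 FPKM) and HNF4A (12.7 FPKM), and the only control library with MT-ND5 (12.5 FPKM). Roundup replicate 5, the other such library, was low in APOC3 (108.7 FPKM). Control replicate 4 was high in GSTA1 (587 FPKM) and APOC3 (278 FPKM). Control replicate 1 was high in SOD2 (252.1 FPKM), CXCL2 (44.8 FPKM) and LYZ (8.96 FPKM), 3 genes of the inflammatory response and of macrophages. Control replicate 2 was high in RACGAP1 (13.0 FPKM). Roundup replicate 4 was the only Roundup library with MT-CO3 above 0 (270.0 FPKM), and Roundup replicate 2 had the highest of 5 very low values of CYP1A1 (0.118 FPKM). The cause of these values was not tested.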

How the results depend on the processing

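The count of 0 genes between Roundup and control held in 16 of 19 settings. The exceptions were 2 genes in a fit of the 2 groups alone (EIF3CL and NUDT4, adjusted p = 0.0407 for each), 3470 genes with array weights (159 higher and 3311 lower), and 1 locus, AHSG (adjusted p = 0.0377), when summed loci, scaling and a replicate block were combined. The array weights stopped before convergence and gave Roundup replicate 3 a weight of 30.4, against 0.101 to 2.41 for the other libraries. Leaving out each library gave 0 to 1 genes, the 1 being RACGAP1 without control replicate 2 (adjusted p = 0.0197). For transcripts the exceptions were 1 with quantile normalization and 4 in the fit of the 2 groups, and 0 to 3 when a library was left out (2 without control replicate 1 and 3 without control replicate 2). Between Roundup and glyphosate 10 ug/L there was 1 gene without a filter (RNU2-35P, adjusted p = 0.0228), 4448 with array weights, and 0 to 2 when a library was left out (2, ATRAID and AC011447.1, without glyphosate replicate 1). The number of genes past 2-fold was 77, and became 294 with a pseudocount of 0.1, 360 with array weights and 116 without the libraries over 30% ribosomal DNA. It ran from 72 to 140 when a library was left out (140 without control replicate 5, 121 without Roundup replicate 2). The median difference ran from -0.33 (without control replicate 5) to -0.02 (without Roundup replicate 5). Of the 13 genes with the smallest p or without overlap, all kept their sign in every setting that kept the gene names, but summed by locus RACGAP1 (-0.10), CEP55 (-0.12) and KRT10 (-0.19) turned. The cause was not tested. The summed loci, the limit on ribosomal DNA and its share as a covariate were chosen after seeing the data. With the covariate, 0 genes were called and 1279 had an unadjusted p under 0.05 (60 higher). Replicates were numbered by the 5 runs into which the labels' library numbers fall. Same-numbered Roundup and control libraries had correlations of their deviations of 0.185, 0.127, -0.006, 0.054 and 0.178, the own number being highest in 4 of 5. The labels do not say what a run was, so the main fit did not pair the libraries. Whether same-numbered libraries belong together was not settled. With the replicate block, 0 genes were called for Roundup against control (281 at an unadjusted p under 0.05) and 0 against glyphosate (177).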
